A study of Mus musculus with 14 samples.

Results

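The 10 genes described here are surface and identity markers used to tell mouse hematopoietic stem cells and progenitors apart, and not all of them mark stem cells. They are Procr, Slamf1, Hlf, Mecom, Cd34, Ly6a, Fgd5, Esam, Cd48 and Tie1, taken as a named list from the 52550 genes of the count table. All 10 were found by symbol and all 10 passed the filter on low counts in the comparisons of MLL-AF9 cells with HSPCs and of Mir139KO with WT HSPCs, whereas Slamf1 was too low to be tested between the MLL-AF9 cultures. The table holds RNA-seq of rRNA-depleted total RNA from bone marrow hematopoietic stem and progenitor cells (HSPCs) of C57BL/6 mice aged 8 to 20 weeks, with 4 libraries of wild-type (WT) HSPCs and 4 of HSPCs from mice in which Mir139 was deleted by CRISPR-Cas9 (Mir139KO). A further 6 libraries came from WT HSPCs transduced with retrovirus encoding the human leukemia fusion MLL-AF9, selected, replated in methylcellulose and expanded with SCF, GM-CSF and the interleukins IL-3 and IL-6. Of these, replicates 1 to 3 carried the vector with neomycin resistance (neo) and replicates 4 to 6 the vector with puromycin resistance (puro). HSPCs came from femur and tibia marrow by magnetic depletion of lineage-positive cells, so they are a mixed population in which stem cells are rare, and no library was of HSPCs cultured without MLL-AF9. The effect of culture and that of the fusion therefore cannot be told apart.

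Stem cells of the mouse marrow are sorted by combinations of these proteins. SLAM receptors are a family of surface proteins encoded side by side on chromosome 1. The member encoded by Slamf1 (CD150) marks stem cells, and the protein encoded by Cd48 is used beside it in sorting to exclude more mature progenitors. Procr (EPCR, the receptor of protein C), Ly6a (Sca-1, a membrane-anchored protein of the Ly6 family), Esam (an adhesion molecule of endothelium, platelets and stem cells) and Cd34 (a sialomucin) are surface proteins, and Tie1 is a receptor tyrosine kinase that partners the angiopoietin receptor Tek. Hlf, a PAR bZIP factor, and Mecom, a zinc finger factor, are transcription factors of stem cell self-renewal, and Fgd5 encodes an exchange factor for Cdc42 used to mark stem cells and endothelium.

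Slamf1 and Cd48 are neighbours on chromosome 1, both on the plus strand, with 61868 bases between the annotated end of Cd48 (chr1:171682009-171705258) and the start of Slamf1 (chr1:171767127-171801184). Cd34 (chr1:194938819-194961279) is on the plus strand of the same chromosome. Their 200 bases upstream of the RefSeq start (build GRCm38.p6, plus strand, 5′ to 3′) are shown because these genes were among those with the strongest falls in MLL-AF9 cells relative to HSPCs (Cd34 and Slamf1) or had the smallest unadjusted p between neo and puro cultures (Cd48). Capitals mark the motifs searched, the GATA factor motif TGATAA in Slamf1 and the RUNX motif TGTGGT in Cd48, and Cd34 has none.
Cd34, chr1:194938621-194938820: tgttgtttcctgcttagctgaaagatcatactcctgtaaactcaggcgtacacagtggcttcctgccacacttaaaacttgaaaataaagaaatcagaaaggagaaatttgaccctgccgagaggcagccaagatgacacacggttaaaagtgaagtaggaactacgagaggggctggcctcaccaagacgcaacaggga
Slamf1, chr1:171766932-171767131: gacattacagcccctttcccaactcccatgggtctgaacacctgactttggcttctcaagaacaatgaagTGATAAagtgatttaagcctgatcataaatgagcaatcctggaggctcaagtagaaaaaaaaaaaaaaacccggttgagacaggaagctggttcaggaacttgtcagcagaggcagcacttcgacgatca
Cd48, chr1:171681792-171681991: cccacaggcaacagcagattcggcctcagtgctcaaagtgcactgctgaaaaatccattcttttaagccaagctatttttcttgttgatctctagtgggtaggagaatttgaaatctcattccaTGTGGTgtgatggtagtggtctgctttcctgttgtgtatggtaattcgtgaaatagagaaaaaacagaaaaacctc

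RefSeq promoter windows, 250 bases before to 50 bases after a start, were found for 8 of the 10 genes (9 windows, Mecom having a pair) and not for Ly6a and Esam. On either strand, TGATAA was in the windows of Slamf1 and of Mecom and in 9.05% of all 32851 windows, and TGTGGT was in that of Cd48 and in 16.76% of all. The ETS motif CCGGAAG was in the window of Cd48, outside the 200 bases shown, and in 8.86% of all windows. The GATA motif AGATAA (11.18% of all windows), the PAR bZIP motif TACGTAA (0.47%) and TATAAA (13.62%) were in none of the 9. These matches describe letters in the windows and are not evidence of binding.

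Libraries held 35016668 to 45877994 counts, so that 3 counts, taken as the floor, equal 0.0654 to 0.0857 CPM. CPM are a gene's counts scaled to a common library total, here after TMM scaling over all 14 libraries. Mir139 was at 0 counts in all 14 libraries, WT included, so its row checks no label. The markers Irf8 (monocyte), Alas2 (erythroid) and Ms4a1 (B cell) of the lists used below were also at 0 in every library. A value of 0 counts allows a level of up to the floor only if the reads of the gene were counted, which was not tested. The HSPC markers Kit, Cd34, Ly6a, Gata2 and Flt3 summed to 379 to 539 CPM in WT, 476 to 555 CPM in Mir139KO and 46.7 to 139 CPM in MLL-AF9 libraries. The noncoding RNA Gm26917 took 17.0% to 35.4% of the counts in HSPC libraries and 7.6% to 10.4% in MLL-AF9 libraries, and the 8 HSPC libraries stood apart in sets of 4 on either side of 25% (WT replicates 1 and 2 and Mir139KO replicates 2 and 3 below it). No pair of libraries within a group differed by less than sampling noise. The closest were MLL-AF9 replicates 4 and 6 (Pearson r = 0.9977 between their log2 CPM values, taken over genes that are not independent of each other). The labels do not say whether samples were separate mice or cultures, so p-values measure the spread between these samples, which may be technical.

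Per length of exon, Cd48 and Ly6a were the most abundant of the 10 genes in WT HSPCs and Mecom and Fgd5 the least. Cd48 reached 31.0 ± 22.5 CPM per kb (SD, n = 4) and Ly6a 15.5 ± 7.01 CPM per kb, and the ranges of these neighbours in the order overlapped. Cd34 followed at 5.46 ± 0.762 CPM per kb, with no overlap with Ly6a, and Tie1 was at 3.60 ± 1.63 CPM per kb. The remaining genes had lower means. Esam was at 1.70 ± 0.827, Hlf at 1.55 ± 1.10 and Slamf1 at 0.508 ± 0.307 CPM per kb, each overlapping its neighbour. Procr was at 0.440 ± 0.148 CPM per kb and did not overlap Fgd5 at 0.213 ± 0.0730, which overlapped Mecom at 0.133 ± 0.0576 CPM per kb. In Mir139KO HSPCs the order differed at 1 place, where Procr (0.456 ± 0.105 CPM per kb) stood above Slamf1 (0.400 ± 0.146 CPM per kb) with overlapping ranges.

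**Figure D1:**
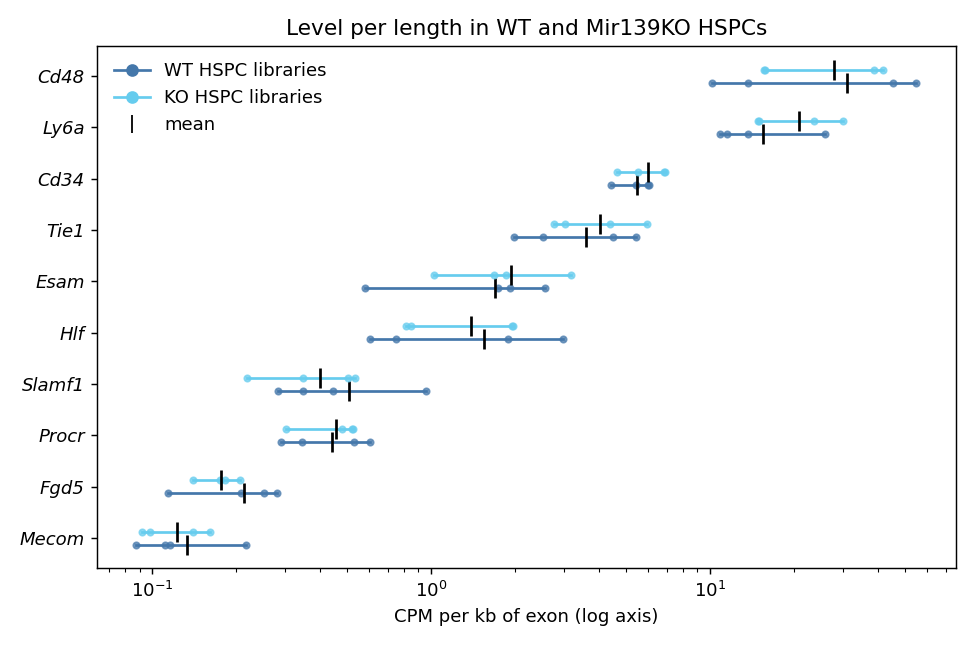
Level of the 10 genes in CPM per kb of exon (log axis) in 4 WT and 4 Mir139KO HSPC libraries; points are libraries, lines span lowest to highest, and ticks are means. Cd48 and Ly6a lie at the top and Mecom and Fgd5 at the bottom in both genotypes.

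The first comparison asked whether loss of Mir139 changed these markers in HSPCs. None of the 10 genes passed the test, and WT and Mir139KO libraries overlapped for each of them. Slamf1 was at 1.74, 5.89, 2.74 and 2.13 CPM in WT replicates 1 to 4 and at 3.09, 2.14, 3.28 and 1.34 CPM in Mir139KO replicates 1 to 4. Cd34 was at 32.1, 43.8, 43.9 and 39.4 CPM in WT and at 33.7, 50.3, 49.9 and 40.1 CPM in Mir139KO libraries. Procr was at 0.588, 1.07, 1.22 and 0.698 CPM in WT and at 0.972, 1.05, 0.611 and 1.06 CPM in Mir139KO libraries. For all 3 genes the values of both genotypes interleaved. The log2 fold changes (Mir139KO over WT) of the 10 genes lay between -0.36 for Slamf1 (SE 0.45) and 0.42 for Ly6a (SE 0.38), with adjusted p = 1.00 for each. The edgeR quasi-likelihood test with Benjamini-Hochberg adjustment called 0% of 15056 genes, with 86 genes and none of the 10 at an unadjusted p under 0.05, and DESeq2 also called 0 of the 10. The SEs, from 0.23 for Cd34 to 0.59 for Cd48, set what could be seen in this design. A p that misses the threshold does not show that the levels were equal.

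The spread among HSPC libraries of both genotypes was itself uneven, and for 3 of the 10 genes the 4 libraries under 25% Gm26917 and the other 4 did not overlap, as was so for 65.0% of the 15056 genes tested. Hlf was at 12.5, 19.8, 13.02 and 13.1 CPM in the 4 libraries under 25% (WT replicates 1 and 2, Mir139KO replicates 2 and 3) and at 4.03, 4.996, 5.41 and 5.64 CPM in the other 4 (WT replicates 3 and 4, Mir139KO replicates 1 and 4). Cd48 was at 53.9, 65.3, 49.4 and 46.1 CPM in the former and at 12.04, 16.2, 18.5 and 18.7 CPM in the latter. Tie1 went the other way, at 9.74, 12.4, 14.8 and 13.6 CPM against 26.7, 22.04, 29.1 and 21.5 CPM. Both genotypes were on each side, so for Hlf, Cd48 and Tie1 the spread within a genotype was larger than the difference between genotypes. Ly6a was at 13.1 to 18.02 CPM in the 4 libraries under 25% and at 16.5 to 36.2 CPM in the others, overlapping through WT replicate 4. Cd34 (32.1 to 50.3 against 33.7 to 43.9 CPM) and Procr (0.588 to 1.07 against 0.698 to 1.22 CPM) overlapped broadly.

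Summed markers of other cells moved with the same split. The endothelial list summed to 189 to 240 CPM in the libraries under 25% and to 317 to 382 CPM in the others, and the neutrophil list to 4360 to 8730 against 11274 to 17291 CPM. The mast cell and basophil list summed to 532 to 1149 against 1275 to 1539 CPM, the erythroid list to 313 to 441 against 550 to 775 CPM, and the T and NK cell list to 115 to 130 against 168 to 218 CPM. Megakaryocyte markers (107 to 409 against 379 to 559 CPM), B and plasma cell markers (289 to 368 against 140 to 328 CPM) and monocyte markers (751 to 986 against 608 to 872 CPM) overlapped. The part of cell composition and of the Gm26917 share in the spread of the 10 genes was not tested. In bulk RNA, fewer cells of a type and less RNA per cell cannot be told apart. With only the 4 libraries under 25%, or only the other 4, edgeR called none of the 10 genes between the genotypes.

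**Figure D2:**
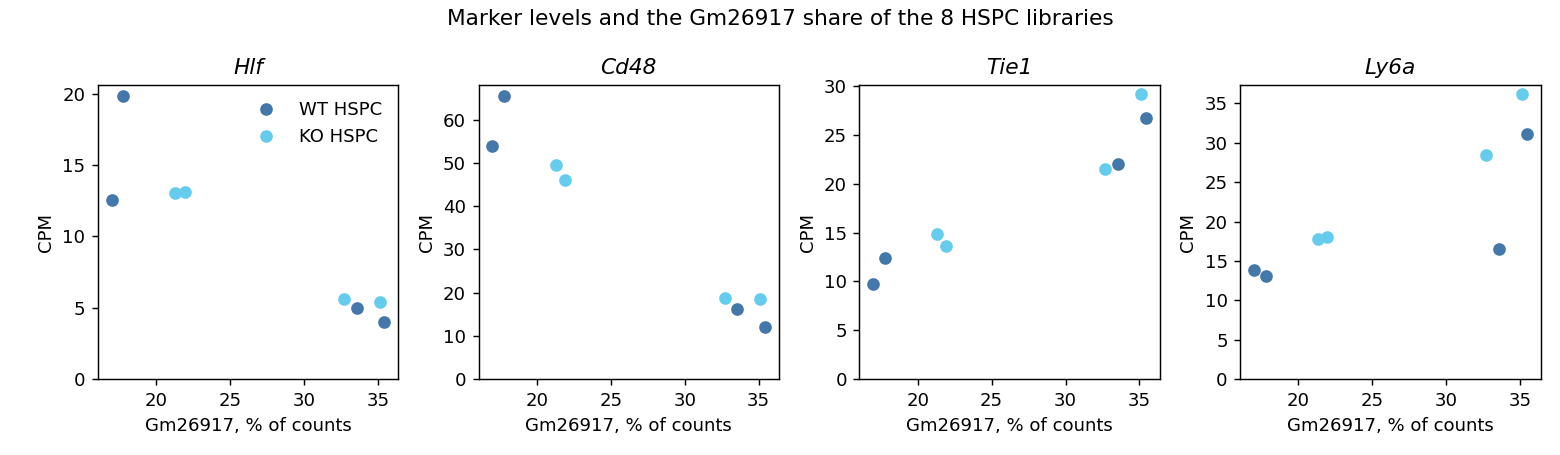
Level in CPM of Hlf, Cd48, Tie1 and Ly6a in the 8 HSPC libraries against the percent of counts taken by Gm26917; points are libraries coloured by genotype. Hlf and Cd48 were lower and Tie1 higher in the 4 libraries with at least 25%, in both genotypes.

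The second comparison asked how the markers stood in MLL-AF9 cells relative to WT HSPCs. Of the 10 genes, 6 were lower in MLL-AF9 cells (Cd34, Slamf1, Tie1, Esam, Hlf and Fgd5), none was higher, and Procr, Mecom, Cd48 and Ly6a did not pass the test. Of all 17077 genes tested, 29.4% were called lower, and for 24.5% the MLL-AF9 libraries all lay below the WT libraries, as they did for the same 6 of the 10. The median log2 fold change was -2.45 over the 10 genes and 0.14 over all genes tested.

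The sialomucin gene Cd34 and Slamf1 fell most in this fit. Their order turned with a GC correction, with neo cultures only, or with only the WT libraries under 25% Gm26917 (-5.67 for Slamf1 and -5.46 for Cd34). For Cd34 the 6 MLL-AF9 cultures lay between 0.0388 and 1.66 CPM (median 0.956), and each was below the 32.1 CPM of the lowest WT library. On the log2 scale Cd34 changed by -5.50 (SE 0.71, adjusted p = 6.93e-05, edgeR quasi-likelihood test with Benjamini-Hochberg adjustment, as for the other adjusted p-values). Of its exon bases, 2.03% are shared with Gm16897 on the opposite strand, and the strand setting of the counting is not given in the sources used here. Slamf1 was nearly absent, with 0 to 7 counts and 0 to 0.140 CPM (median 0.0783) in MLL-AF9 cultures against 58 to 253 counts in WT libraries. Its log2 fold change was -5.35 (SE 0.71, adjusted p = 8.11e-05), and the 3 neo cultures were all below the floor of 3 counts.

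Tie1, Esam and Fgd5, which endothelial cells also express, were lower as well. Tie1 was at 9.74, 12.4, 26.7 and 22.04 CPM in WT libraries and between 0.060 and 1.64 CPM (median 0.323) in MLL-AF9 cultures, which is -4.77 on the log2 scale (SE 0.75, adjusted p = 0.000239). Esam was at 1.66, 5.47, 7.36 and 4.96 CPM in WT libraries and between 0.020 and 0.361 CPM (median 0.175) in MLL-AF9 cultures, which is -4.74 on the log2 scale (SE 0.66, adjusted p = 0.000108). Fgd5, the Cdc42 exchange factor, was at 0.713, 1.304, 1.58 and 1.76 CPM in WT libraries and between 0.120 and 0.543 CPM (median 0.288) in MLL-AF9 cultures, which had 6 to 28 counts each. Its fall was smaller, -2.19 on the log2 scale (SE 0.47, adjusted p = 0.00162).

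The transcription factors differed in their calls. Hlf was at 12.5, 19.8, 4.03 and 4.996 CPM in WT libraries and between 0.640 and 3.41 CPM (median 1.38) in MLL-AF9 cultures, so that the highest culture was close to the lowest WT library. Its log2 fold change was -2.70 (SE 0.56, adjusted p = 0.00133), and it depended on the HSPC libraries used, at -3.38 (adjusted p = 0.00218) against WT replicates 1 and 2, under 25% Gm26917, and at -1.62 (adjusted p = 0.0363) against WT replicates 3 and 4. Mecom was at 1.38, 2.70, 1.09 and 1.43 CPM in WT libraries and between 0.139 and 1.63 CPM (median 0.612) in MLL-AF9 cultures. These ranges overlapped, and its change of -1.14 on the log2 scale (SE 0.64, adjusted p = 0.137) did not pass. Mecom was called lower with a GC correction (log2 fold change -1.68, adjusted p = 0.0381) and with all 14 samples in 1 fit (-1.53, adjusted p = 0.00330). In the latter fit neo and puro cultures were separate groups, and the mean of their log values was set against WT. The difference between vectors was thus left out of the spread, unlike in the main fit.

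The other 3 genes without a call were surface proteins. Procr was at 0.040 to 0.772 CPM (median 0.440, 2 to 39 counts) in MLL-AF9 cultures, and replicate 2 with the highest value lay within the WT range, so that its change was -1.21 on the log2 scale (SE 0.64, adjusted p = 0.115). Cd48 spread from 0.220 to 24.3 CPM (median 11.2) in MLL-AF9 cultures against 53.9, 65.3, 12.04 and 16.2 CPM in WT libraries, a change of -1.64 on the log2 scale (SE 1.00, adjusted p = 0.167). It too was called lower with a GC correction (-2.68, adjusted p = 0.0330) and with all 14 samples in 1 fit (-2.69, adjusted p = 0.00158). Against WT replicates 1 and 2 its log2 fold change was -2.36 (adjusted p = 0.159), and against replicates 3 and 4 it was -0.36 (adjusted p = 0.830). Ly6a was at 13.8, 13.1, 31.1 and 16.5 CPM in WT libraries and at 1.80 to 81.3 CPM (median 3.32) in MLL-AF9 cultures, so its extremes lay on both sides of WT. Its log2 fold change was 0.52 (SE 1.07, adjusted p = 0.688), and the sign turned without MLL-AF9 replicate 4 (-0.22) and without replicate 6 (-0.01). Ly6a has close paralogs, and reads that fit several of them may have been assigned unevenly.

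**Figure D3:**
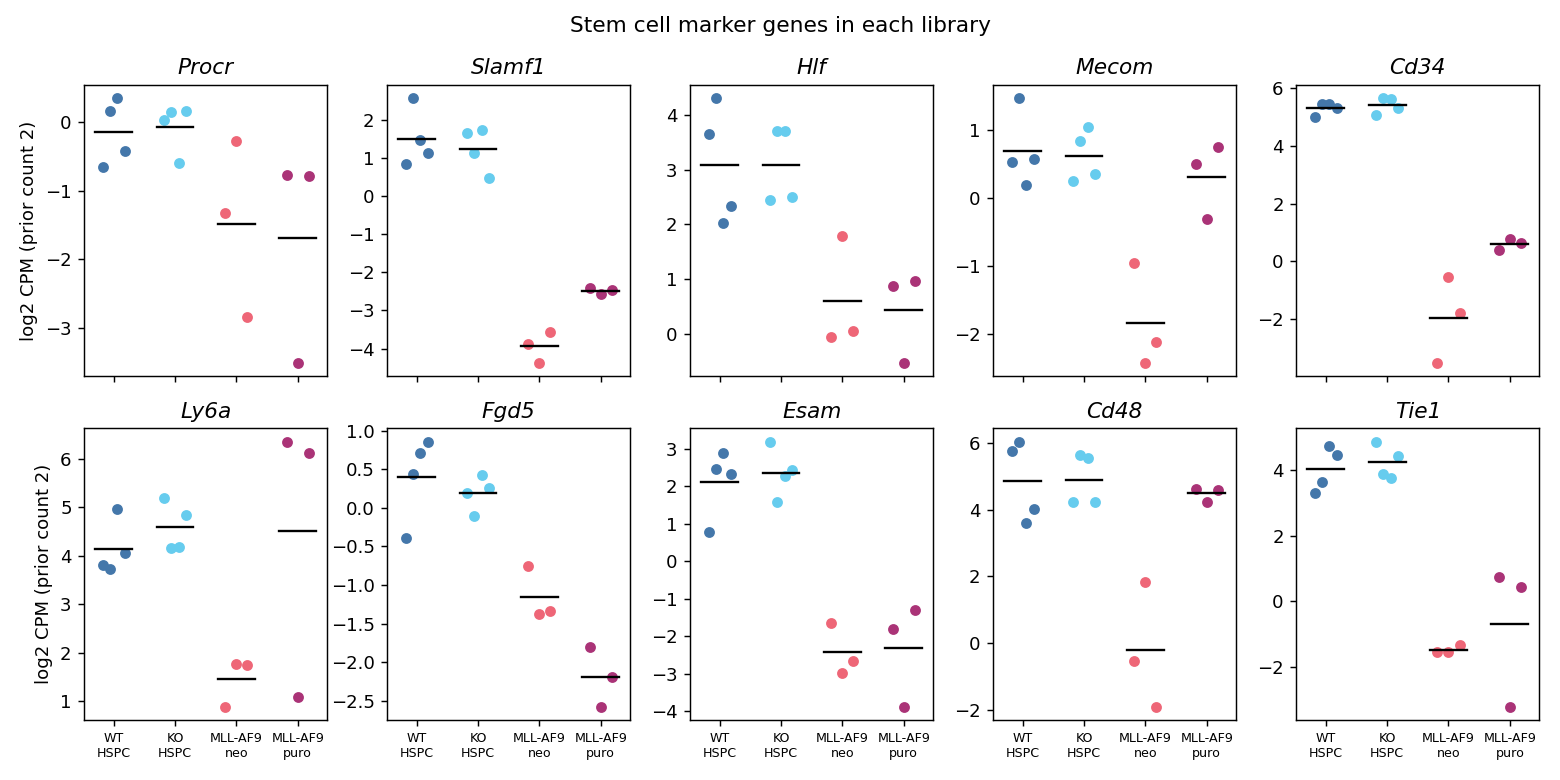
Level of each of the 10 genes in every library, in log2 CPM with a prior count of 2; points are the 4 WT, 4 Mir139KO, 3 neo and 3 puro libraries and bars are group means. Cd34, Slamf1, Tie1 and Esam lie lower in all 6 MLL-AF9 cultures than in any HSPC library, and Ly6a is highest in puro replicates 4 and 6.

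Against Mir139KO HSPCs, which share the MLL-AF9 libraries with the comparison above, 6 of the 10 genes were again called lower and none higher, beside 31.9% of 16953 genes called lower. The log2 fold changes were -5.64 for Cd34 (SE 0.69, adjusted p = 2.40e-05), -5.03 for Slamf1 (SE 0.66), -4.95 for Esam (SE 0.61), -4.94 for Tie1 (SE 0.71), -2.56 for Hlf (SE 0.48) and -1.94 for Fgd5 (SE 0.42, adjusted p = 0.00142). All MLL-AF9 libraries lay below all Mir139KO libraries for 6 of the 10 genes and for 27.9% of all genes. Procr (-1.28, SE 0.62, adjusted p = 0.0845) did not pass, but was called without MLL-AF9 replicate 2 (-1.58, adjusted p = 0.0389). Mecom was at -1.04 (SE 0.62), Cd48 at -1.50 (SE 0.95) and Ly6a at 0.07 (SE 1.04), none of them called. With a GC correction, Mecom (adjusted p = 0.0360) and Cd48 (adjusted p = 0.0256) were called lower, as they were with all 14 samples in 1 fit (adjusted p = 0.00507 and 0.00214), and with neo cultures only Ly6a was called lower too (-3.17, adjusted p = 1.16e-05).

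HSPC libraries also held transcripts listed as markers of other marrow cells, and most of these fell with the 6 genes. Bulk RNA does not show which cells the transcripts came from. The megakaryocyte list summed to 107 to 491 CPM in WT, 240 to 559 CPM in Mir139KO and 7.04 to 27.0 CPM in MLL-AF9 libraries, with no marker at 0 in all libraries of any group, and all 8 of 8 were lower in MLL-AF9 cells than in WT HSPCs. The endothelial list summed to 189 to 382, 223 to 331 and 25.01 to 122 CPM. In this list Sox17 was at 0 in all MLL-AF9 libraries and also in all HSPC libraries under 25% Gm26917. Of its 10 genes tested against WT HSPCs, 5 were lower, Cdh5 (VE-cadherin) with a log2 fold change of -5.73 and Eng (endoglin) of -5.31, and 1 was higher, Mmrn2 at 2.96. All tested genes of the erythroid (5 of 5, median log2 fold change -10.24), T and NK cell (8 of 8, -7.33), B and plasma cell (7 of 7, -6.43) and mast cell and basophil lists (5 of 5, -5.77) were lower than in WT HSPCs, as were 4 of 6 neutrophil and 3 of 5 monocyte genes. Their part in the fall of the 6 genes was not tested. Over the 14 libraries, the genes closest in pattern to Esam were the platelet glycoprotein genes Gp5 and Itga2b (each with Pearson r = 0.992 of log2 CPM). Those closest to Fgd5 were Gp1bb (r = 0.976) and Pf4 (r = 0.962), also of megakaryocytes. Closest to Tie1 were Cmtm3 (r = 0.992) and Sphk1 (r = 0.988), to Cd34 AI839979 (r = 0.985) and Pdgfrb (r = 0.984), and to Slamf1 Mcpt8 and Hist2h2be (each r = 0.981). For Hlf they were Amot (r = 0.970) and Otulinl (r = 0.967), and for Cd48 Adgrl4 (r = 0.982) and Hivep2 (r = 0.971). Weaker likeness was found for Mecom with Trim16 (r = 0.944), Ly6a with Dhrs1 (r = 0.929) and Procr with Tlcd2 (r = 0.894). These correlations describe libraries that fall into HSPC and MLL-AF9 sets and share that contrast.

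Families and partners of the 10 genes were compared in the same way between MLL-AF9 cells and WT HSPCs, where 29.4% of all genes tested were lower and 32.8% higher. Of 27 tested genes among 30 other stem cell genes, 14 were lower and 5 higher (median log2 fold change -1.79, against 0.14 over all genes). The largest falls were those of the transcription factors Tal1, from 175 ± 32.5 (SD, n = 4) to 0.213 ± 0.206 CPM (n = 6), with a log2 fold change of -9.70, and Gfi1b at -8.83. The largest rises were Hoxa9 at 5.06 and Meis1 at 4.55, the homeobox partners known as targets of MLL fusions. Beside Slamf1 and Cd48, 3 of 6 tested SLAM family genes were lower and none higher, with log2 fold changes of -6.94 for Slamf8 and -5.10 for Slamf6. In the Ly6 family without Ly6a, 5 of 8 tested genes were lower and none higher, and Ly6d was listed at 0 in all MLL-AF9 libraries against 11.8 ± 2.89 CPM in WT (SD, n = 4). In the Tie pathway, Tek, the partner of Tie1, fell (log2 fold change -3.06, SE 0.47, adjusted p = 0.000222), whereas the ligand gene Angpt4 rose by 3.73 on the log2 scale (SE 0.37), from 0.739 ± 0.230 (SD, n = 4) to 10.0 ± 2.20 CPM (n = 6). Of the bZIP genes related to Hlf, none of 3 (Dbp, Tef and Nfil3) was called. Of the relatives of Fgd5, Fgd4 (5.25) and Fgd6 (1.82) rose and Fgd2 (-1.96) fell. Of 14 tested progenitor surface genes, 5 were lower, Flt3 at -5.27 and Itga2b at -5.01, and 2 higher, Cd33 at 4.86 and Fcgr2b at 0.70.

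Because the MLL-AF9 cultures carried either of 2 vectors, neo and puro cultures were also set against WT HSPCs apart. With the 3 neo cultures, 9 of the 10 genes were called lower, beside 26.4% of all genes, and with the 3 puro cultures 6 were, beside 26.5%. Ly6a, Cd48 and Mecom were called with neo but not with puro cultures. In neo cultures their log2 fold changes were -2.73 (SE 0.48, adjusted p = 0.00106), -4.66 (SE 1.01, adjusted p = 0.00342) and -2.61 (SE 0.62, adjusted p = 0.00541). In puro cultures they were 1.48 (SE 0.88, adjusted p = 0.179), -0.70 (SE 0.59, adjusted p = 0.331) and -0.39 (SE 0.47, adjusted p = 0.505). Cd34, Tie1, Esam, Hlf and Fgd5 were lower with either vector, with log2 fold changes of -7.03 and -4.74 for Cd34 in neo and puro cultures, and Slamf1 was called lower with both.

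**Figure D4:**
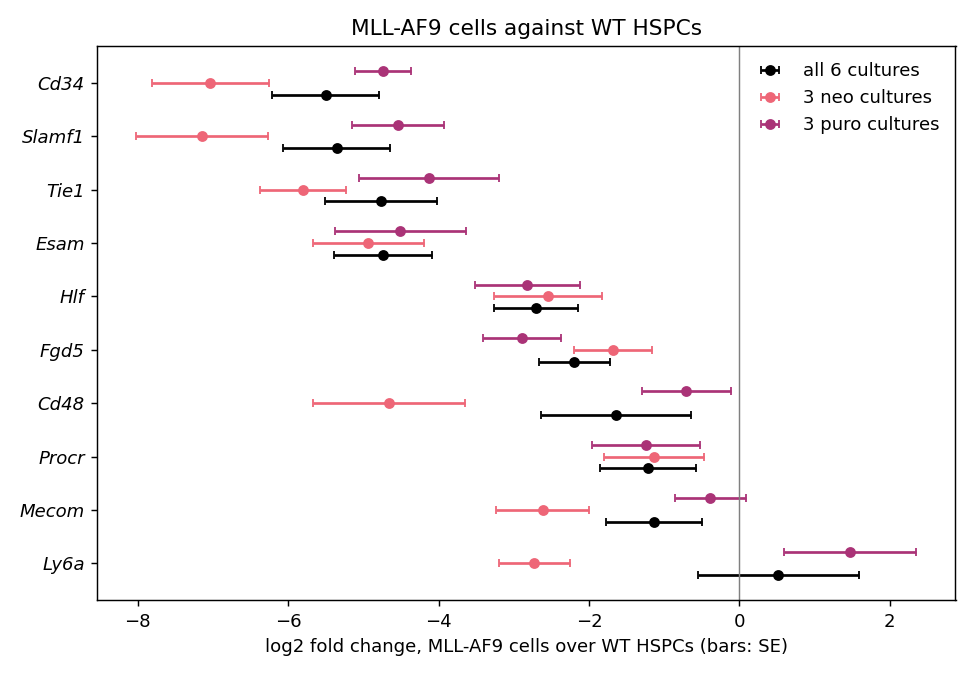
Log2 fold change of MLL-AF9 cells over 4 WT HSPC libraries for each of the 10 genes, from all 6 cultures, the 3 neo or the 3 puro cultures; bars are SE and the line marks 0. Cd48, Mecom and Ly6a were far below 0 with neo cultures and near or above 0 with puro cultures.

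Tested directly between vectors, none of 9 genes was called with 3 cultures a side, beside 0.873% of 16503 genes. Before adjustment, 5 of the 9 lay below 0.05 in this edgeR test, and so did 2259 of the 16503. DESeq2 called 3 of the 9 (Cd48, Ly6a and Mecom), beside 8.03% of all genes. With all 14 samples in 1 fit, which takes the spread from the HSPC libraries too, edgeR called 4 (Cd48, Ly6a, Mecom and Cd34), beside 4.23% of all genes. Cd48 was at 0.640, 3.52 and 0.220 CPM in neo replicates 1 to 3 and at 24.3, 18.8 and 24.2 CPM in puro replicates 4 to 6, a log2 difference of 3.95 (puro over neo, SE 0.98, adjusted p = 0.139). Mecom was at 0.465, 0.139 and 0.183 CPM in neo and at 1.36, 0.760 and 1.63 CPM in puro cultures (log2 difference 2.25, SE 0.64, adjusted p = 0.185). Cd34 was at 0.0388, 0.634 and 0.238 CPM in neo and at 1.28, 1.66 and 1.52 CPM in puro cultures (log2 difference 2.28, SE 0.84, adjusted p = 0.304). The neo and puro values of Cd48, Mecom, Cd34 and Fgd5 did not overlap, as was so for 19.7% of all genes tested with these 3 cultures a side. In puro cultures Cd34 remained far below the HSPC range whereas Cd48 was within it.

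Fgd5 was lower in each puro culture, at 0.543, 0.337 and 0.348 CPM in neo and 0.240, 0.120 and 0.171 CPM in puro cultures (log2 difference -1.19, SE 0.49, adjusted p = 0.356). Ly6a was high in part of the puro cultures, at 81.3, 2.06 and 69.4 CPM in replicates 4 to 6, against 1.80, 3.33 and 3.32 CPM in neo cultures. Puro replicate 5 was thus within the neo range, and the log2 difference of 4.22 (SE 1.21) had an adjusted p = 0.190. Tie1 was likewise highest in replicates 4 and 6, at 1.64, 0.060 and 1.29 CPM in puro replicates 4 to 6 against 0.291, 0.297 and 0.348 CPM in neo cultures (log2 difference 1.71, SE 1.01, adjusted p = 0.537). Without puro replicate 5, Ly6a (log2 difference 4.78, adjusted p = 0.00490) and Tie1 (2.26, adjusted p = 0.0360) were called, beside 5.75% of all genes, and the remaining puro replicates 4 and 6 were the closest pair of libraries within a group. Procr was lowest in the same library, at 0.539, 0.040 and 0.532 CPM in puro replicates 4 to 6, and at 0.349, 0.772 and 0.0916 CPM in neo cultures. Slamf1 had 1, 0 and 2 counts in neo and 7, 6 and 7 counts in puro cultures, too few for a test.

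Because sorting uses the markers in pairs, their counts were also set against each other within libraries, where scaling has no part. Slamf1 had 3.23 to 22.7 counts per 100 counts of its neighbour Cd48 in WT, 4.33 to 16.7 in Mir139KO, 0 to 16.7 in neo and 0.549 to 0.638 in puro libraries. Every puro ratio lay below the lowest WT ratio, whereas the neo ratios rested on 0 to 2 counts of Slamf1 each. Procr had 1.09 to 10.1 counts per 100 of Cd48 in WT, 21.9 to 54.5 in neo and 0.213 to 2.22 in puro libraries, so neo cultures lay above the WT range and puro cultures overlapped its lower end. Cd34 had 141 to 335 counts per 100 of Ly6a in WT and 93.1 to 282 in Mir139KO libraries. In neo cultures it had 2.15 to 19.0 and in puro cultures 1.57 to 80.6, the highest being replicate 5, in which Ly6a was low.

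Of the genes related to the 10, few differed between vectors in edgeR. Ly6e, of 6 tested Ly6 family genes, was higher in puro cultures by 1.45 on the log2 scale (adjusted p = 0.0368), and Cdkn1c, of 19 tested other stem cell genes, was lower (-2.91, adjusted p = 0.0354). Of 4 tested monocyte markers, 2 were higher in puro cultures, Ccr2 (6.30, adjusted p = 0.0261) and Ly86 (2.78, adjusted p = 0.0478). Ly86 was low in both, at a mean of 1.62 CPM in puro and 0.231 CPM in neo cultures. Of 8 tested endothelial markers, Pecam1 (2.39, adjusted p = 0.0284) was higher and 7 were not called. Of 6 tested neutrophil markers, Camp (-4.41, adjusted p = 0.0140) was lower and 5 were not called. The monocyte list summed to 129 to 501 CPM in neo and to 265 to 980 CPM in puro cultures, which overlapped. The sums of the endothelial list (25.01 to 44.6 against 87.3 to 122 CPM), the mast cell and basophil list (4.38 to 10.6 against 12.3 to 19.1 CPM) and the T and NK cell list (4.18 to 5.62 against 5.95 to 16.6 CPM) were higher in each puro than in any neo culture. In the endothelial sum, Pecam1 alone averaged 17.8 CPM in neo and 92.5 CPM in puro cultures. The median log2 difference of the 8 tested endothelial genes was -0.05, against -0.02 over all genes tested. No tested gene of the mast cell and basophil list (2 tested) or the T and NK cell list (3 tested) was called. Whether cells of these types had a part in the levels of Cd48, Mecom, Cd34 and Ly6a was not tested.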

How the data were processed

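Per the labels and the methods, the authors mapped reads with STAR 2.5.3e to GRCm38, counted them with featureCounts 1.6.0, and deposited raw counts per gene without normalization. Strand and multi-mapping settings are not given in the sources used here. The 10 table columns of another series were not used. Groups, vectors and replicate numbers came from the sample labels, and the 10 genes, the other gene lists and the settings were chosen with earlier results of these data known. Every contrast was fitted on the libraries of its own groups with edgeR 4.0.16 (R 4.3.3, limma 3.58.1) with TMM factors and the robust quasi-likelihood test. Genes with at least 10 counts in as many libraries as the smaller group holds were tested, and a Benjamini-Hochberg adjusted p under 0.05 over all genes tested was a call. SEs were obtained from the fold change and the F statistic. Intervals and floors cover counting error only. The test was run first on simulated data. Besides the 10 genes, at most 2 called genes with the largest rise and 2 with the largest fall of a list were named, and per gene the 2 with the highest Pearson r. Some results under this rule are not reported here. Coordinates and exon lengths are from GENCODE M21, sequences from RefSeq on GRCm38.p6. Alternatives were RLE factors, total counts, DESeq2 1.42.0, no filter, 1 fit of all 14 samples (neo and puro as separate groups), a GC spline, a replicate block, Gm26917 left out, subsets of libraries and each replicate left out. Same-numbered samples did not deviate together in every pair (correlations from -0.652 to 0.719), so the numbers were not taken to pair them.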

Additional observations from a re-analysis of the deposited data

How the results depend on the processing

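Between MLL-AF9 cells and either HSPC group, 6 of the 10 genes were called in the main fit and 6 to 9 in the alternatives, all of them lower. The count reached 9 when only neo cultures were used, and against Mir139KO also with the replicate block. Total counts as library sizes shifted the median over all genes, on the log2 scale, by 0.55 against WT and 0.69 against Mir139KO HSPCs and the split of calls against WT from 5603 higher and 5027 lower to 6747 and 3128 (against Mir139KO from 6325 and 5416 to 8011 and 3212), and did not turn any of the 6 called genes. Ly6a had no stable direction. Against WT it was -0.65 on the log2 scale with all 14 samples in 1 fit, -2.73 with neo cultures only, -0.08 with MLL-AF9 replicates 4 and 6 summed, and from -0.22 to 0.86 with a replicate left out. Against Mir139KO it was -1.09, -3.17 and -0.51 in these fits, -0.056 with a GC correction, -0.31 with HSPCs of at least 25% Gm26917 only, and from -0.67 to 0.34 with a replicate left out.

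The replicate block turned Ly6a to -1.80 against WT and -2.13 against Mir139KO HSPCs (-1.83 and -2.17 with the GC correction too), Cd48 in Mir139KO over WT to 0.016 (0.12 with GC) and Procr in puro over neo to 0.01. No HSPC library had the number of MLL-AF9 replicates 5 or 6, so the blocked contrasts with HSPCs came from MLL-AF9 replicates 1 to 4. Of these, replicates 1 to 3 were neo cultures. With the block, 8 of the 10 genes were called lower against WT (Cd48 and Mecom added) and 9 against Mir139KO (Procr too). With the GC correction too, 7 were called in each, since Procr was not called against Mir139KO (-0.96, adjusted p = 0.123) and Fgd5 was not called (-1.21 against WT, adjusted p = 0.0794, and -0.93 against Mir139KO, adjusted p = 0.0947), and the block changed no other call of the 10 genes.

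Between Mir139KO and WT HSPCs, signs turned among values near 0. Procr was -0.057 with total counts, Hlf 0.011 with GC, 0.051 with GC and the block and 0.26 with HSPCs of at least 25% only, Cd34 -0.21 with the latter, Fgd5 0.14 with HSPCs under 25% only, and Cd48 0.11 with GC, 0.022 with the share as a covariate and 0.36 with HSPCs of at least 25% only. With a replicate left out, ranges were -0.15 to 0.23 for Procr, -0.56 to 0.13 for Slamf1, -0.42 to 0.35 for Hlf, -0.28 to 0.21 for Mecom, -0.17 to 0.46 for Esam, -0.44 to 0.27 for Cd48 and -0.10 to 0.43 for Tie1. Of all genes, 1 was called with HSPCs under 25% only and 1 with the others only.

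Between puro and neo cultures, 3 of the 10 genes were called by DESeq2 and 4 with all 14 samples in 1 fit, and 0 to 2 with a replicate left out. Of all genes, 144 were called, 1326 by DESeq2, 221 without the filter, 761 with all 14 samples, 270 with GC and the block, 5 with replicates 4 and 6 summed, and 0 to 990 with a replicate left out (0 without replicate 2 or 3, 990 without replicate 5). With a replicate left out, log2 differences were -0.57 to 0.77 for Procr, -0.57 to 0.61 for Hlf and -0.22 to 1.17 for Esam. The causes of these changes were not tested. Procr, Fgd5, Mecom and, in MLL-AF9 cultures, Slamf1 and Esam rest on few counts, where depth limits what can be seen.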
